A study of Drosophila melanogaster with 12 samples.

Results

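Cytoplasmic ribosomal protein genes were followed in heads of Drosophila melanogaster, brain included, across 2 genotypes and 2 times of day. The set held every gene of the deposited transcript table whose symbol starts with RpL or RpS and a digit, together with RpLP0, RpLP1 and RpLP2. This gave 91 of 17816 genes, with 232 of 35536 transcripts: 50 genes of the large subunit, 38 of the small subunit and 3 of the stalk. Mitochondrial ribosomal proteins have other symbols and were not in the set, nor were sta and RpLP0-like. Control flies carried UAS-dicer2/+;tim(UAS)-Gal4/+, and knockdown flies carried the same driver, tim(UAS)-Gal4/+, with UAS-dppil4 RNAi in place of the wild-type chromosome opposite UAS-dicer2, so dicer2 and the driver were in both genotypes. The tim driver is active in clock cells, and dppil4 is the gene CG5808, a cyclophilin-type peptidyl-prolyl isomerase gene. Cycles of 12 h light and 12 h dark were run for 4 days, and heads were taken on the last of them at ZT8, which falls in the light, or ZT16, which falls in the dark (hours after lights on). Each of the 4 groups had 3 libraries of whole-head RNA. The age and sex of the flies, and whether the 3 libraries came from separate collections, were left unstated in the labels, and p-values therefore measure the spread between these libraries, which may be technical.

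The cytoplasmic ribosome joins a small subunit, which reads the messenger RNA, to a large subunit, which makes the peptide bond. Each subunit is an RNA core clad in ribosomal proteins, most of which are needed in equal numbers, and their genes are among the most strongly transcribed of any cell. In flies, loss of 1 copy of many of these genes gives the Minute phenotype of slow growth and short bristles. Several ribosomal proteins also exist as a pair of gene copies, 1 of which is often used mainly in the germline. Introns of many ribosomal protein genes carry small nucleolar RNAs, the guides that direct modification of ribosomal RNA.

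The targeted gene CG5808 was low in all libraries. At ZT8 it had 4.91, 4.81 and 4.93 CPM (reads per 1000000 of the TMM-scaled library) in control, with 4.34, 2.91 and 4.49 CPM in knockdown. At ZT16 it had 6.17, 5.86 and 5.16 CPM in control, with 4.46, 4.08 and 3.71 CPM in knockdown. The knockdown libraries lay below the control libraries at each time, and the change passed the test at ZT16 (log2 fold change -0.49 ± 0.16, adjusted p = 0.0427 by edgeR) but not at ZT8 (-0.32 ± 0.15, adjusted p = 0.188). Total expected counts ran from 25844821 to 37676778 per library and were lower at ZT16. The neuronal gene elav (170.3 to 247.6 CPM) and the opsin gene ninaE (26930 to 38130 CPM) were present in every library. Ribosomal RNA took 2.58% to 7.09% of counts at ZT8, 6.40% to 8.05% in control at ZT16 and 8.94% to 9.73% in knockdown at ZT16. Control ZT16 replicate 1 stood apart, with 1764 CPM of midgut enzyme transcripts against 27.98 to 141.0 CPM in the other 11 libraries, and ovary transcripts at 799.2 CPM, where the others had 85.34 to 117.8 CPM.

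As a family, ribosomal protein transcripts made up a large share of the transcripts in these heads. Summed over the 91 genes, TPM (transcripts per 1000000, a level corrected for transcript length) reached 17.19%, 19.83% and 20.0% of the total in the control ZT8 libraries and 17.24%, 18.58% and 18.78% in the knockdown ZT8 libraries. At ZT16 the sums were 17.8%, 17.7% and 18.58% in control and 15.57%, 16.36% and 15.74% in knockdown. All 3 knockdown ZT16 libraries lay below the other 9 libraries, which overlapped among themselves. The group means were 19.01% ± 1.58 (SD, n = 3), 18.2% ± 0.838, 18.02% ± 0.480 and 15.89% ± 0.412 in that order. Because rRNA reads enter the deposited TPM, the sum was also taken without rRNA genes, and the knockdown ZT16 libraries were then at 17.4%, 18.37% and 17.69% against 19.56%, 19.27% and 20.04% in control at ZT16. Without rRNA genes, control ZT8 replicate 1 and knockdown ZT8 replicate 1, both at 18.48%, were close to the highest knockdown ZT16 library. On the CPM scale, which is not per length, knockdown at ZT16 had 5.177%, 5.687% and 5.262% and overlapped control at 5.922%, 5.537% and 6.034%. In whole heads, fewer cells of a type and less RNA per cell cannot be told apart. Large and small subunit genes were alike in knockdown against control at ZT16. The ratio of summed deposited TPM was 0.8807 for the large subunit, 0.881 for the small subunit, 0.8958 for the stalk and 0.8816 for the whole family. For the large subunit, small subunit and whole family it was 0.9073, 0.9075 and 0.9081 without rRNA genes. On CPM it was 0.9216, 0.9187 and 0.9219 in the same order.

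**Figure D1:**
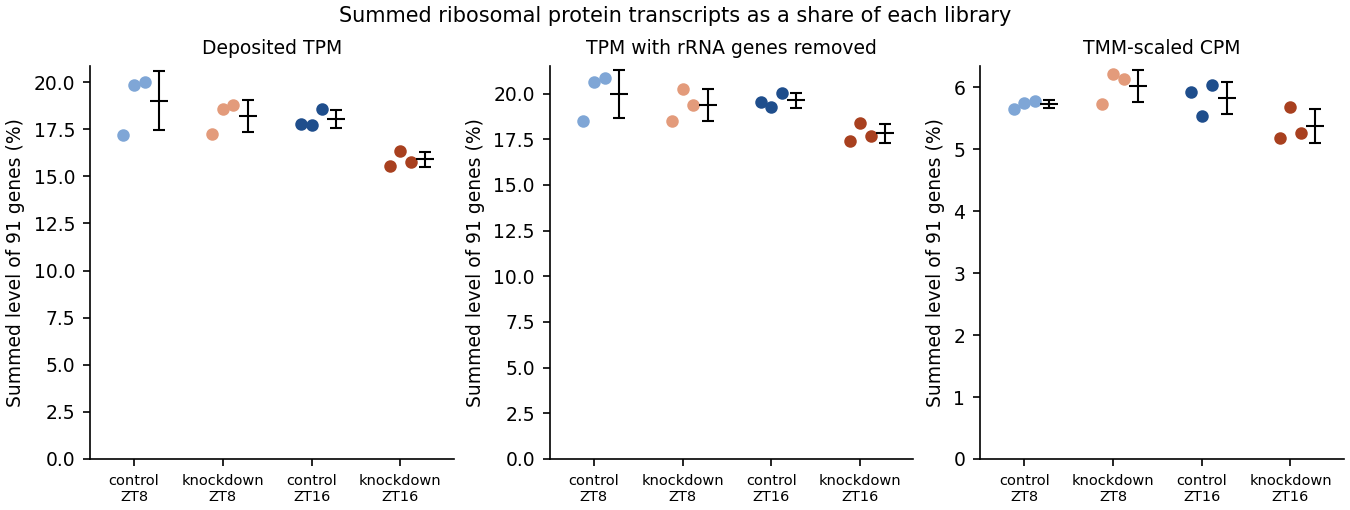
Summed level of the 91 ribosomal protein genes as a percentage of each library, on deposited TPM, on TPM with rRNA genes removed and on TMM-scaled CPM. Points are libraries, and bars give the mean and SD of 3 libraries. On deposited TPM the knockdown ZT16 libraries, at 15.57% to 16.36%, lie below the other 9 libraries, and on CPM they overlap the control ZT16 libraries.

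Levels within the family were close to each other. Of the 91 genes, 21 were among the 50 genes of highest mean TPM in these heads, 54 among the top 100 and 78 among the top 200. The 66 genes with no paralog by symbol ran from 1035 TPM for RpS27, a zinc-binding small subunit protein gene, to 6585 TPM for RpL41. Their median was 2243 TPM, and the 90th percentile was 2.06 times the 10th. RpL41 encodes a very short peptide at the interface of the subunits. Next came RpLP1 (4228 TPM), an acidic protein of the stalk that recruits elongation factors, RpL39 (4122 TPM), which lines the peptide exit tunnel, and RpS29 (3415 TPM), a zinc-binding protein of the small subunit. The lowest genes past the count filter were the paralogs RpS5b (9.16 TPM), RpS15Ab (60.4 TPM), RpL7-like (75.6 TPM) and RpL34a (299.5 TPM). Of the 3 stalk genes, the anchor gene RpLP0 had 1705 TPM and RpLP2 had 2527 TPM, both below RpLP1. Replicates agreed closely in the 83 tested members other than RpS5b, which was left out here. Their median SD within a group was 0.067 on the log2 scale, with a range of 0.032 to 0.114. The median was 0.105 over all 10717 genes tested, which include genes of much lower counts.

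The genes lay on all the large chromosome arms, with 19 on 2L, 20 on 2R, 14 on 3L, 23 on 3R, 14 on X and 1, RpS3A, on chromosome 4. Of the 89 that could be matched to the gene annotation, 28 (31.46%) spanned snoRNA genes, 74 in all, against 100 of 13986 protein-coding genes (0.72%). RpL22, RpS16 and RpL17, which come up below, are among these hosts. For 24 of the genes an exon is shared with a gene on the opposite strand, among them RpS9 and RpL36A, and for 6 with a gene on the same strand, RpL22 among them. Whether the counting used strand is unstated in the labels, so values of these genes can hold reads of a neighbour.

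Of the 12 families of paralogs, most were carried by 1 copy in heads. In 6 of them the further copies, 7 genes in all (RpL10Aa, RpL22-like, RpL37b, RpS10a, RpS19b, RpS28-like and RpS28a), did not pass the count filter, which left 84 members for testing. RpS28a had 0 reads in all 12 libraries, which allows up to 0.00753 CPM (3 counts over all libraries, counting error only). RpL10Aa had 2 reads in all, RpS28-like 9, RpS19b 14, RpL22-like 16, RpL37b 45 and RpS10a 46. RpL22-like and RpS19b are known from the fly germline. Testis transcripts, as a list of 10 genes, summed to at most 1.74 CPM in any library. The partners of these copies, RpL10Ab (1599 TPM), RpL22 (945.6 TPM), RpL37a (2988 TPM), RpS10b (1612 TPM), RpS19a (1847 TPM) and RpS28b (2616 TPM), took nearly all of their family's TPM.

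In the other families both copies were present. RpS14a took 70.8% and RpS14b 29.2% of their shared TPM. These copies are close to identical, so the split between them rests on how the authors' software shared reads. RpL34b took 83.87% against 16.13% for RpL34a, and RpL24 took 82.38% against 17.62% for RpL24-like. RpL7 took 96.29% against 3.71% for RpL7-like, and RpS15Aa took 96.99% against 3.01% for RpS15Ab. RpL24-like and RpL7-like are related to yeast Rlp24 and Rlp7, which act in assembly of the large subunit rather than in the finished ribosome. Shares moved little between groups, for example 81.35% ± 0.859 to 83.33% ± 0.195 for RpL24 and 15.5% ± 0.716 to 17.25% ± 0.315 for RpL34a (SD, n = 3).

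RpS5b was the exception among the paralogs. RpS5b is the copy of RpS5a used in the fly ovary. Its reads were 8, 15 and 12 in control ZT8, 17, 15 and 24 in knockdown ZT8, 1475, 28 and 11 in control ZT16 and 7, 9 and 5 in knockdown ZT16. Only control ZT16 replicate 1 was high, the library that also held 102.3 CPM of the oocyte gene osk, which was at 0 in 9 libraries. Control ZT16 replicate 2 held 1.98 CPM of osk, and replicate 3 held 0.068 CPM. Replicate 2 also had the midgut genes Jon99Cii (4.43 CPM) and alphaTry (3.58 CPM), against 232.8 and 215.0 CPM in replicate 1. The model called RpS5b higher at ZT16 in control (log2 fold change 5.82 ± 1.73, adjusted p = 0.0413) and lower in knockdown at ZT16 (-6.03 ± 1.84, adjusted p = 0.0471). Each of these calls ended in 16 of 20 alternatives, among them the fit without control ZT16 replicate 1. The part of the ovary transcripts in it was not tested. RpS5a, at 1696 TPM, was at -0.11 ± 0.054 in the second comparison and was not called.

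**Figure D2:**
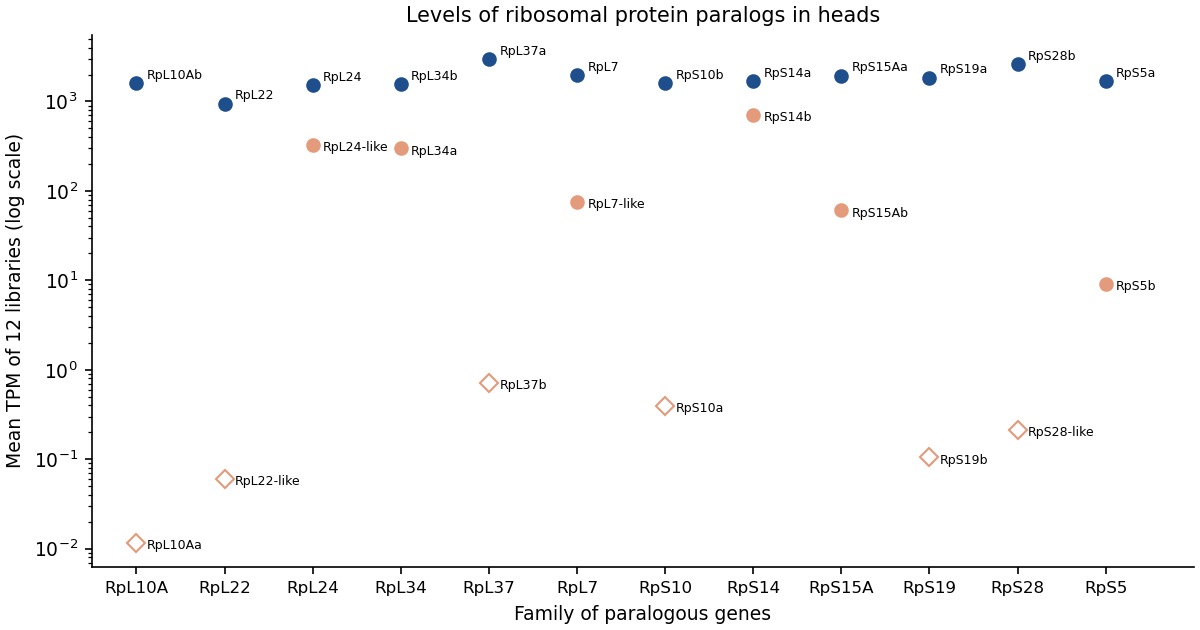
Mean TPM of 12 libraries, on a log axis, for the members of the 12 paralog families. Filled circles passed the count filter and open diamonds did not; blue marks the copy of highest level, and RpS28a, with 0 reads, is not drawn. The second copies run from 702.1 TPM for RpS14b down to 0.0117 TPM for RpL10Aa.

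Knockdown and control heads were compared at ZT8 to see whether the set differed in the light phase. By edgeR's quasi-likelihood test, 2 of the 84 tested members rose and 0 fell in knockdown, where 8.84% of all genes tested were called higher and 6.76% lower. At an unadjusted p under 0.05, 10 members were higher and 1 lower, and DESeq2 called 4 higher and 1 lower. The 2 were RpL15, a core protein of the large subunit, and RpS25, a small subunit protein needed for initiation at some viral internal ribosome entry sites. RpL15 had 757.9, 756.2 and 757.4 CPM in control, with 849.5, 940.6 and 820.1 CPM in knockdown (log2 fold change 0.20 ± 0.061, adjusted p = 0.0444). RpS25 had 716.6, 711.7 and 727.7 CPM in control, with 788.9, 796.3 and 807.9 CPM in knockdown (log2 fold change 0.15 ± 0.044, adjusted p = 0.0374). In both genes every knockdown library lay above every control library. The median log2 fold change of the members was 0.073, against -0.0054 over all genes tested and 0.078 over other genes with short transcripts, and 79 of 84 fold changes were above 0. On TPM the median was -0.064 with all genes at -0.14, so the sign depended on the scaling while the members stayed above the median of all genes. Without filter, with the replicate block or in the 6 ZT8 libraries alone, 0 members rose, and 0 of the 2 calls held with every library left out in turn.

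At ZT16 the direction was the other one. In knockdown, 0 of 84 members rose and 21 fell, where 11.2% of all genes tested were called higher and 11.0% lower. At an unadjusted p under 0.05, 0 members were higher and 40 lower, and DESeq2 called 0 higher and 24 lower. The median of the members was -0.12, against -0.017 over all genes, and 80 of 84 fold changes were below 0. The falls were small: apart from RpS5b they ran from -0.26 to -0.15 on the log2 scale. They came from both subunits, with 11 of 47 tested large subunit genes and 10 of 34 small subunit genes, and from 0 of the 3 stalk genes.

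RpS9, RpS21 and RpL27A had the largest of these falls after RpS5b. RpS9 sits at the entry of the messenger RNA channel and bears on decoding accuracy. Its level was 573.2, 553.2 and 578.5 CPM in control ZT16, with 446.6, 511.5 and 467.6 CPM in knockdown ZT16 (log2 fold change -0.26 ± 0.061, adjusted p = 0.0123). RpS21, a small subunit protein whose loss in flies causes overgrowth of blood-forming organs, had 210.2, 200.5 and 216.7 CPM in control, with 167.4, 179.0 and 178.7 CPM in knockdown (log2 fold change -0.26 ± 0.053, adjusted p = 0.00618). RpL27A of the large subunit had 881.6, 837.4 and 891.0 CPM in control, with 691.7, 777.5 and 727.3 CPM in knockdown (log2 fold change -0.25 ± 0.059, adjusted p = 0.0123). In these 3 genes the groups did not overlap. Over the set, 29 members had all 3 knockdown libraries below all 3 control libraries and 0 had them above, where 22.2% and 21.6% of all genes did.

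The falls at ZT16 rested on small differences between libraries. Relative to its mean over the 12 libraries, the median member lay at 0.046, -0.046 and 0.063 (log2) in the control ZT16 libraries and at -0.155, -0.0123 and -0.139 in the knockdown ZT16 libraries, so knockdown replicate 2 lay within the range of control. The count of falls was 1 without knockdown ZT16 replicate 1, 5 without replicate 3, 10 without control ZT16 replicate 1, 7 without control ZT16 replicate 3 and 13 when the second ZT8 library of either genotype was dropped. RpS21 was the only one of the 21 called in all 12 fits that left out a library. The rRNA share of counts was also at its highest in knockdown at ZT16, and single libraries went both ways. In control ZT8, shares of 5.89%, 2.92% and 3.27% came with median members at -0.015, 0.0135 and 0.0312. Knockdown ZT8 replicate 1, with 5.74%, had its median member at 0.0033, and replicate 3, with 2.58%, at 0.111. Knockdown ZT16 replicate 2, with the highest share (9.73%), had the highest median member of its group. Knockdown ZT8 replicate 2, with 7.09%, had its median member at 0.134. With rRNA genes left out 16 members fell. The 10 head and brain genes, none of them at 0, summed to 56730 to 63020 CPM in control ZT16 and 50680 to 53990 CPM in knockdown ZT16. At ZT8 they summed to 59950 to 63670 CPM in control and 51130 to 52910 CPM in knockdown, so the sum was lower in knockdown at both times. Most of this sum was ninaE, at 26930 to 38130 CPM. The neuronal gene elav was lower in knockdown at ZT8 (170.3 to 194.1 against 194.6 to 247.6 CPM). At ZT16 elav was not lower in knockdown (181.6 to 199.4 against 177.6 to 190.2 CPM). The 6 fat body genes overlapped between the genotypes at ZT16 (23270 to 34610 and 29720 to 36830 CPM) and were higher in knockdown at ZT8 (27950 to 56030 against 16750 to 24410 CPM). The part of rRNA and of these markers in the members' values was not tested.

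Over both times together, knockdown had 0 rises and 2 falls among 84 members, where 14.7% of all genes were called higher and 14.1% lower. Unadjusted p-values gave 1 rise and 9 falls, and DESeq2 1 and 5. RpS21 fell (log2 fold change -0.20 ± 0.037, adjusted p = 0.00216) and was called in 19 of 19 alternatives. RpS2, at the entry of the messenger RNA channel, fell by less (-0.11 ± 0.039, adjusted p = 0.0498), and its call ended in 14 of 19 alternatives. The median of the members was -0.029, against -0.011 over all genes. On TPM 28 members fell, with a median of -0.12 where all genes were at -0.11. Of all 10717 genes tested, 862 rose and 2804 fell on log2(TPM + 0.1).

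RpS21 (chromosome 2L, 2856070 to 2857029, plus strand, dm6) also differed between the genotypes in the make-up of its transcripts. Its transcript NM_078738, of 494 bases, held 0.317%, 0.252% and 0.297% of the gene's TPM in control ZT8 and 0.294%, 0.299% and 0.272% in control ZT16. In knockdown the share was 11.18%, 10.78% and 11.65% at ZT8 and 14.64%, 15.15% and 14.32% at ZT16. All 6 knockdown libraries thus lay far above all 6 control libraries, while the main transcript NM_164506, of 391 bases, went from 96.86% or more in control to 87.54% or less in knockdown. The RNAi construct and the chromosome that carries it were present in the knockdown flies only, so an effect of the RNAi and a difference in sequence between the parental strains cannot be told apart.

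Next, ZT16 was compared with ZT8 within control heads. The ZT8 and ZT16 libraries have names of different patterns and differ in depth (36885481 to 37676778 against 25844821 to 31848667 counts), so time and the set of libraries cannot be told apart. Here the family split: 13 of 84 members rose and 9 fell, where 12.0% of all genes tested were called higher at ZT16 and 11.8% lower. The median member was at 0.012, against 0.023 over all genes, and on TPM the median was -0.10 with all genes at -0.11. Rises and falls of members therefore lay on both sides of the typical gene, and their shares, 15.48% and 10.71%, were near those of all genes.

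RpL15, RpL36A and RpL19 had the largest rises after RpS5b. RpL15 had 757.9, 756.2 and 757.4 CPM at ZT8 and 996.9, 891.2 and 962.4 CPM at ZT16 (log2 fold change 0.33 ± 0.061, adjusted p = 0.00279). RpL36A, which contacts transfer RNA at the exit site, had 343.1, 351.9 and 373.2 CPM at ZT8 and 443.3, 428.1 and 446.4 CPM at ZT16 (0.30 ± 0.052, adjusted p = 0.00183). RpL19, whose protein reaches across to the small subunit, had 905.5, 872.8 and 886.2 CPM at ZT8 and 1085, 1025 and 1087 CPM at ZT16 (0.26 ± 0.053, adjusted p = 0.00471). In each of the 3 the groups did not overlap. The stalk gene RpLP2 rose (0.19 ± 0.057, adjusted p = 0.0337), while RpLP0 and RpLP1, both at 0.18, did not pass the test (adjusted p = 0.0628 and 0.0986). Other rises included RpL13A, RpL23, RpL37a, RpS15Aa, RpS23 and RpS27A, from 0.18 to 0.26. RpS27A is made as a fusion with ubiquitin.

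The largest falls in control were of RpL22, RpS16, RpS21 and RpS27. RpL22 (chromosome X, 762560 to 765130, minus strand, dm6), which in flies has a long tail resembling histone H1, had 711.5, 660.2 and 683.4 CPM at ZT8 and 515.5, 533.2 and 563.6 CPM at ZT16 (log2 fold change -0.35 ± 0.058, adjusted p = 0.00144). RpS16, whose tail reaches the peptidyl site, had 503.8, 508.0 and 515.0 CPM at ZT8 and 414.9, 371.9 and 411.0 CPM at ZT16 (-0.35 ± 0.056, adjusted p = 0.00124). RpS21 went from 252.5, 267.4 and 269.3 to 210.2, 200.5 and 216.7 CPM (-0.33 ± 0.053, adjusted p = 0.00119). RpS27 went from 379.8, 383.6 and 432.8 to 319.4, 307.0 and 333.0 CPM (-0.32 ± 0.073, adjusted p = 0.00898). In these 4 genes all ZT16 libraries lay below all ZT8 libraries. RpL34b (-0.30), RpS9 (-0.30), RpL13 (-0.20), RpL34a (-0.19) and RpL24-like (-0.17) fell too.

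Of the 22 calls in control, 9 held in all 12 fits that left out a library: those of RpL15, RpL19 and RpL36A among the rises and of RpL22, RpL34b, RpS9, RpS16, RpS21 and RpS27 among the falls. The count of rises was 8, 5 and 5 without control ZT8 replicate 1, 2 or 3, 4 and 5 without control ZT16 replicate 1 or 3, and 7 without knockdown ZT8 replicate 2 or knockdown ZT16 replicate 2. On TPM it was 2, with 20 falls, where 525 of all 10717 genes tested rose and 2284 fell on log2(TPM + 0.1).

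In knockdown heads the same comparison of ZT16 with ZT8 was one-sided. There 0 of 84 members rose and 40 fell, or 47.62%, where 11.8% of all genes tested were called higher at ZT16 and 11.4% lower. Unadjusted p-values gave 3 rises and 49 falls, and DESeq2 2 and 44. The median member was at -0.17, against -0.013 over all genes. Falls came from 24 of 47 large subunit genes and 16 of 34 small subunit genes, and from 0 of 3 stalk genes. All 3 ZT16 libraries lay below all 3 ZT8 libraries in 46 members and above them in 2, where 22.6% and 21.6% of all genes did. Of 28 snoRNA hosts 16 fell, and of 55 tested members that host none 24 fell. On the X chromosome 7 of 14 fell, and on the autosomes 33 of 70.

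The deepest falls were of RpL22, RpS16, RpS9 and RpS27. RpL22 went from 786.0, 767.9 and 695.4 CPM at ZT8 to 465.3, 474.8 and 445.9 CPM at ZT16, a fall of the fitted level by 38.4% (log2 fold change -0.70 ± 0.058, adjusted p = 9.22e-06). RpS16 went from 498.0, 563.4 and 539.9 CPM to 326.4, 345.0 and 339.9 CPM (-0.66 ± 0.056, adjusted p = 1.16e-05). RpS9 went from 662.1, 725.2 and 730.9 CPM to 446.6, 511.5 and 467.6 CPM (-0.57 ± 0.061, adjusted p = 7.06e-05). RpS27 went from 374.2, 440.1 and 425.3 CPM to 271.1, 303.5 and 276.1 CPM (-0.54 ± 0.073, adjusted p = 3.46e-04). In all 4 the groups were well apart, and each of these calls held in 20 of 20 alternatives. The other 36 falls ran from -0.51 for RpL34b to -0.17 for RpS18. RpL15 (0.13 ± 0.061, adjusted p = 0.134) and RpL36A (0.14 ± 0.052, adjusted p = 0.0659), which rose in control, did not pass here.

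The count of falls in knockdown stayed between 26 and 43 when any 1 library was left out, with 26 without knockdown ZT16 replicate 1, and 26 of the 40 genes were called in all 12 of these fits. On TPM 39 members fell, where 1294 of all 10717 genes tested fell on log2(TPM + 0.1). With rRNA genes left out 39 members fell.

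**Figure D3:**
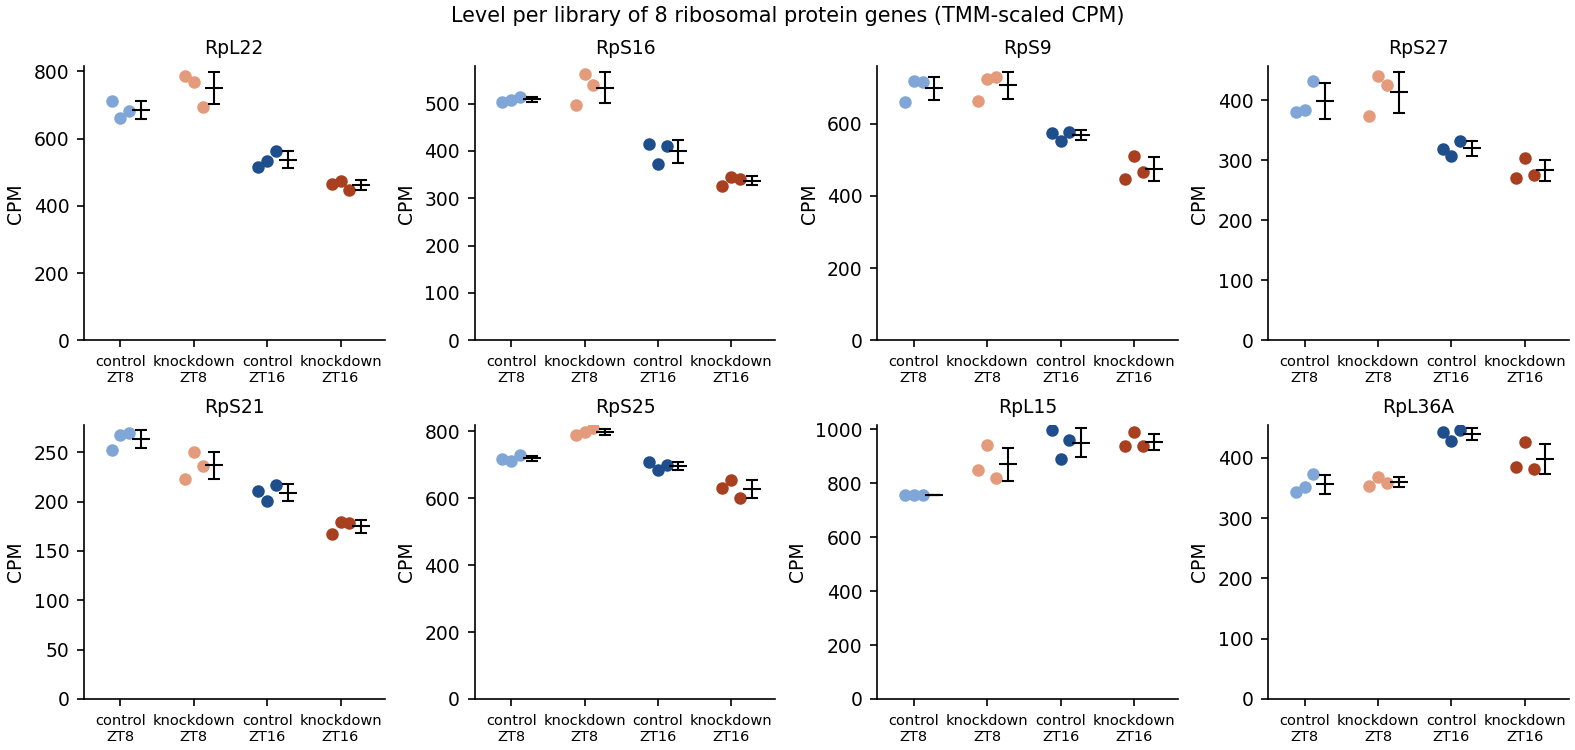
CPM per library, scaled by TMM, of 8 ribosomal protein genes in the 4 groups, with the mean and SD of 3 libraries. The upper row shows the 4 genes with the deepest falls from ZT8 to ZT16 in knockdown, such as RpL22 from 695.4 to 786.0 CPM down to 445.9 to 474.8 CPM; the lower row shows RpS21, RpS25, RpL15 and RpL36A.

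Order within the family was much the same in both genotypes. The time changes in control and in knockdown come from separate libraries. Across 83 members, with RpS5b left out, Pearson's r between the 2 was 0.916 and Spearman's rho 0.895, against 0.249 and 0.402 over all 10717 genes tested. Over the 73 mitochondrial ribosomal protein genes they were 0.764 and 0.735, so a shared order was not particular to this family. These are descriptions across genes, which are not independent replicates and share each library's depth and preparation. The change was lower in knockdown for 82 of the 83, with a median difference of -0.186, and the exception was RpL24-like. Of the 9 genes that fell in control, 8 (88.89%) also fell in knockdown, and these 8 are 20.0% of the 40 that fell in knockdown.

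**Figure D4:**
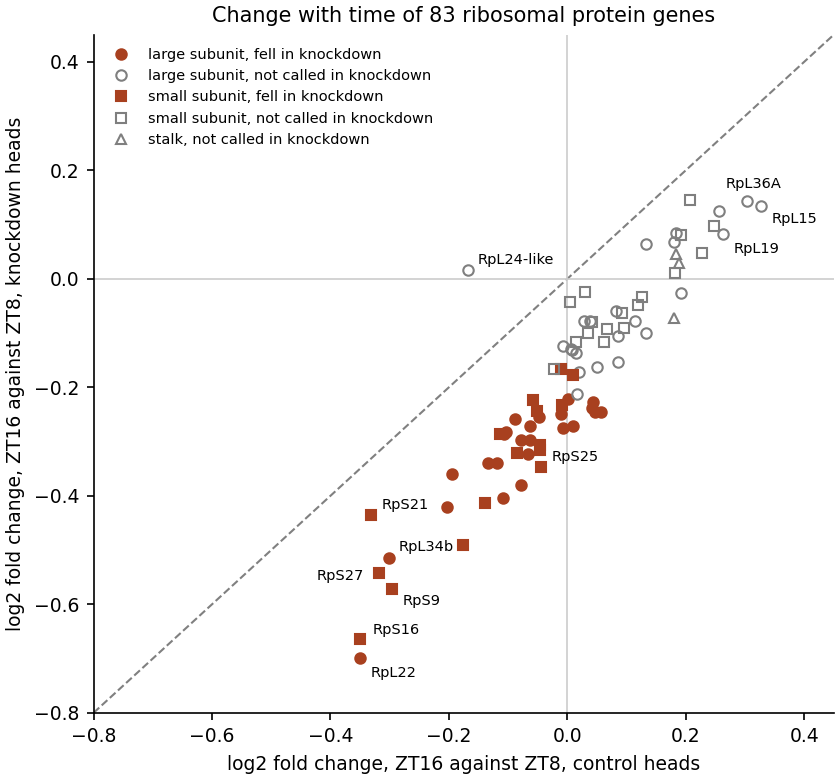
Log2 fold change from ZT8 to ZT16 in control heads (horizontal) and in knockdown heads (vertical) for 83 ribosomal protein genes, without RpS5b. Filled red symbols fell in knockdown, open grey symbols were not called there, and the dashed line marks equal change. All genes but RpL24-like lie below the line, and RpL22 and RpS16 are lowest in both genotypes.

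Whether the knockdown effect itself differed between the times was tested with the interaction, the effect at ZT16 minus that at ZT8. Here 0 of 84 members were called higher and 4 lower, where 2.67% of all genes were called higher and 1.51% lower. Unadjusted p-values gave 1 above and 46 below 0. RpL22 (-0.35 ± 0.081, adjusted p = 0.0404), RpS16 (-0.31 ± 0.080, adjusted p = 0.0498), RpS25 (-0.30 ± 0.062, adjusted p = 0.0302) and RpL17 (-0.23 ± 0.059, adjusted p = 0.0485) were the 4. RpS25 was higher in knockdown at ZT8 and lower at ZT16, with 707.7, 684.1 and 698.7 CPM in control ZT16, with 630.1, 653.1 and 598.9 CPM in knockdown ZT16 (log2 fold change -0.15 ± 0.044, adjusted p = 0.0293). RpL17, which lines the peptide exit tunnel, had 589.2, 599.6 and 607.1 CPM in control ZT8, 620.6, 640.5 and 627.5 CPM in knockdown ZT8, 573.5, 562.0 and 583.7 CPM in control ZT16, with 501.7, 532.5 and 502.5 CPM in knockdown ZT16. Its knockdown libraries were above control at ZT8 and below it at ZT16, without overlap at either time. The median interaction of the members was -0.19, against -0.033 over all genes, and 83 of 84 values were below 0. None of the 4 calls held with every library left out in turn, and the count of falls was 0 with the replicate block or on TPM and 16 by DESeq2, which called 0 higher.

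Short transcripts were looked at for comparison, since the longest transcript of the median tested member had 882 bases. Among the 1443 other messenger RNA genes with no transcript of 1000 bases or more, the median change with time was 0.12 in control and -0.013 in knockdown, and the median interaction was -0.10. Medians of the members were 0.012, -0.17 and -0.19 in the same order. For genes of 1000 bases or more the medians were 0.016, -0.011 and -0.022. For knockdown against control at ZT8 the short genes had a median of 0.078, close to the 0.073 of the members, and 14.55% of them were called higher. At ZT16 their median was -0.015, against -0.12 for the members. Short genes as a class thus also had a median above 0 at ZT8 and below 0 in the interaction, and the part of transcript length in the members' values was not tested further.

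Most of the genes used 1 transcript: in 74 of 84 tested members a single transcript held over 90% of the gene's TPM, and in 8 at least 2 transcripts held 10% or more each. Shares of at least 10 percentage points apart between group means, without overlap of the libraries, were found in 1 member for knockdown against control at ZT8, 2 at ZT16, 3 for time in control and 2 for time in knockdown. Among 948 other genes with at least 100 TPM and several transcripts, 5.27%, 5.27%, 7.60% and 10.4% met the same limit, and among the 66 such members 1.52%, 3.03%, 4.55% and 3.03% did. The limit was chosen after these values were seen, and no test was made of the shares, which are the authors' estimates from reads that transcripts share.

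RpS21, described above, was the member whose shares differed between genotypes at both times. In RpL9, a large subunit gene, transcript NM_001298897 of 807 bases held 13.54%, 12.51% and 10.41% in control ZT8 and 8.12%, 11.01% and 14.79% in knockdown ZT8. At ZT16 it held 50.71%, 36.18% and 36.7% in control and 22.93%, 24.14% and 23.9% in knockdown, so it was higher at night in both genotypes, and higher in control than in knockdown at night. In RpL17, transcript NM_001298032 of 830 bases held 19.55%, 19.65% and 16.02% in control ZT8 and 12.81%, 7.32% and 19.35% in knockdown ZT8. It held 41.77%, 39.33% and 40.67% in control ZT16 and 38.51%, 43.22% and 39.23% in knockdown ZT16, without overlap between the times. In RpS13, a small subunit gene, transcript NM_057590 of 633 bases went the other way, from 9.42% to 15.41% in control ZT8 to 1.68% to 2.08% in control ZT16, and from 8.29% to 11.08% to 1.16% to 1.55% in knockdown. At the gene level RpL9 and RpS13 were called in none of the 6 comparisons by edgeR.

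**Figure D5:**
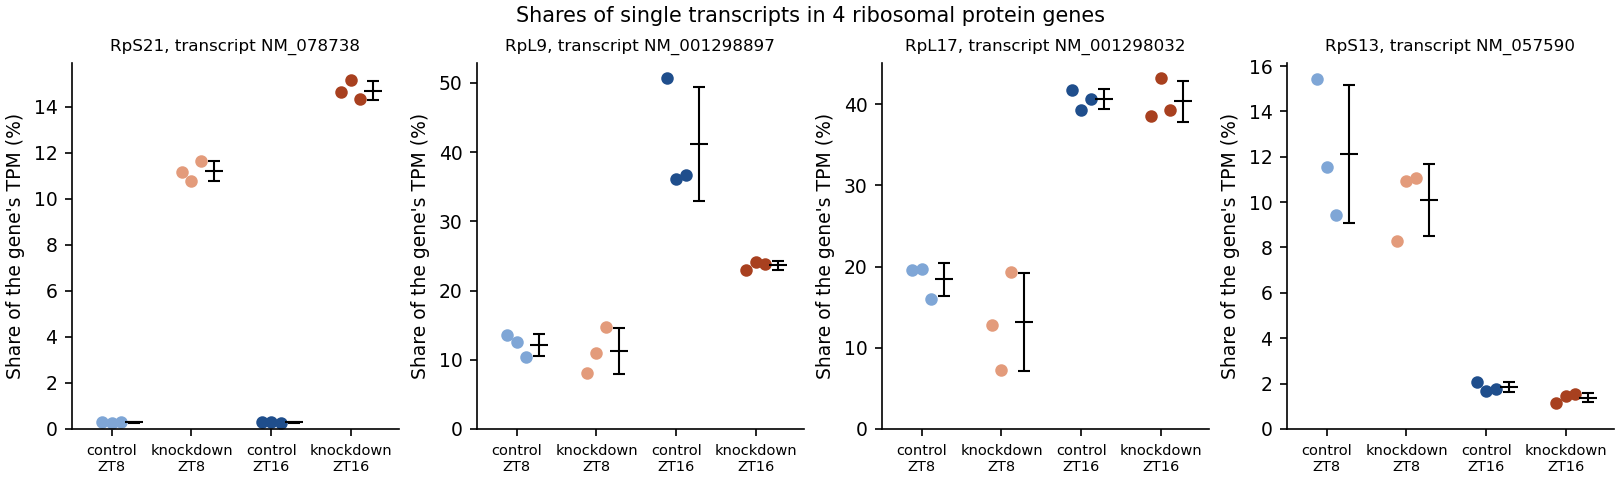
Share of 1 transcript in its gene's TPM, in percent, per library, with the mean and SD of 3 libraries, for RpS21, RpL9, RpL17 and RpS13. The RpS21 transcript is at 0.252% to 0.317% in the 6 control libraries and at 10.78% to 15.15% in the 6 knockdown libraries, while the other 3 differ between ZT8 and ZT16.

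Lists of other genes that make, regulate or use ribosomes were counted in the same fits. Of 37 tested ribosome biogenesis genes, 1 (2.7%) rose and 2 (5.4%) fell in knockdown at ZT16, beside 11.2% and 11.0% of all genes. Non1 rose (0.25), and Tsr1 (-0.30) and eIF6 (-0.25) fell. Both Tsr1 and eIF6 act on late subunit precursors. With time 3 of the 37 (8.1%) rose and 0 fell in control, beside 12.0% and 11.8% of all genes. In knockdown 2 (5.4%) rose and 1 (2.7%) fell with time, beside 11.8% and 11.4% of all genes. A list of 7 tested genes for transcription by RNA polymerase I, which holds the subunit genes RpI1, RpI135 and RpI12 and initiation factors such as Tif-IA, gave 0 edgeR calls in all 6 comparisons, and at an unadjusted p under 0.05 they gave 2 falls over both times and 1 with time in control.

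Of 36 tested translation factors, 7 (19.44%) rose and 2 (5.56%) fell in knockdown at ZT16, beside 11.2% and 11.0% of all genes. With time 9 of them rose in control and 12 (33.33%) in knockdown, with 0 falls in both, where 12.0% and 11.8% of all genes rose. The initiation factor 3 subunit genes eIF3h (0.24 ± 0.048, adjusted p = 0.00496) and eIF3l (0.32 ± 0.062, adjusted p = 0.00421) were among the rises at ZT16, and eIF4B fell (-0.25 ± 0.050, adjusted p = 0.00482). With time eIF1A rose in control (0.33) and in knockdown (0.39).

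The mitochondrial ribosome, which translates the few messages of the organelle, has its own proteins, and 73 of their genes were tested. With time 42 (57.53%) rose and 0 fell in control (median 0.25), beside 12.0% and 11.8% of all genes. In knockdown 27 (36.99%) rose and 3 (4.11%) fell with time (median 0.16), beside 11.8% and 11.4% of all genes. In knockdown against control, 11 rose and 0 fell at ZT8 (median 0.11), where 8.84% of all genes rose and 6.76% fell. At ZT16, 6 (8.22%) rose and 3 (4.11%) fell, beside 11.2% and 11.0% of all genes. Their median difference between the genotypes' time changes was -0.0995, with 57 of 73 lower in knockdown.

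At ZT16 in knockdown, 11.2% of all genes rose and 11.0% fell. Among 23 genes of TOR and Myc signalling and translation control, 2 (8.70%) rose and 3 (13.04%) fell there. The 3 were Lk6 (-0.47), a kinase of the cap-binding factor eIF4E, Nprl3 (-0.43), an inhibitor of TOR complex 1, and Tor itself (-0.21). With time larp, a regulator of messages that begin with a terminal oligopyrimidine tract, rose in control (0.42) and in knockdown (0.43). S6k (0.31), which phosphorylates RpS6, and Myc (0.62) rose in knockdown. Of the 23 genes, 3 (13.04%) rose and 0 fell with time in control, beside 12.0% and 11.8% of all genes. In knockdown 4 (17.39%) rose and 2 (8.70%) fell with time, beside 11.8% and 11.4% of all genes. Of 12 core promoter, chromatin and cell cycle regulators, 0 rose and 2 (16.67%) fell in knockdown at ZT16, namely pzg (-0.21) and Iswi (-0.20).

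Of 12 genes of the response to ribosomal protein loss and of ribosome quality control, 0 rose and 3 fell in knockdown at ZT16. They were PEK (-0.46 ± 0.056, adjusted p = 2.84e-04), a kinase of eIF2alpha, Xrp1 (-0.40 ± 0.056, adjusted p = 6.62e-04), the transcription factor that acts in Minute flies, and Clbn (-0.27 ± 0.050, adjusted p = 0.00328). With time in control 4 of the 12 (33.33%) rose, PEK (0.24) among them, and 1 (8.33%) fell, beside 12.0% and 11.8% of all genes. In knockdown 1 rose with time, pelo (0.31), and 1 fell, beside 11.8% and 11.4% of all genes. The fall was of Xrp1 (-0.54 ± 0.056, adjusted p = 5.63e-05). The interaction was called for Xrp1 (-0.40 ± 0.080, adjusted p = 0.0292) and for PEK (-0.37 ± 0.079, adjusted p = 0.0342). These lists, like the members, were read with the knockdown and time comparisons sharing libraries: the control ZT16 libraries serve both the knockdown effect at ZT16 and the time change in control, and the knockdown ZT16 libraries serve both the same effect and the time change in knockdown.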

How the data were processed

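Whole-head RNA of 12 libraries in 4 groups was sequenced from stranded poly(A)-selected libraries, per the labels' protocols. The submitters' processing notes name STAR 2.6.0c, RSEM 1.3.1 and the build dm6, and their settings are not given in the sources used here. The deposited table holds expected counts, FPKM and TPM per transcript for every library, and the FPKM values were not used. All 36 value columns were mapped to a library by name, the control ZT16 columns by time and number.

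The deposited expected counts, already whole numbers, were summed per gene. Genes were filtered with filterByExpr (minimum count 10), scaled by TMM and fitted in edgeR 4.0.16 (R 4.3.3) with 1 mean per group over all 12 libraries, 8 residual degrees of freedom and robust quasi-likelihood F tests. In all, 6 comparisons were tested (knockdown at each time and over both, time in each genotype, and the interaction), p-values were adjusted by Benjamini-Hochberg over 10717 genes, and calls were made at an adjusted p under 0.05. Values after ± are standard errors unless marked SD. The deposited TPM was used for levels per length and transcript shares. Summed shares are given without a test; an exact permutation of 3 against 3 libraries could not go below 0.10. Alternatives were RLE size factors, no filter, rRNA genes left out, log2(TPM + 0.1) and log2(TPM + 1) in limma 3.58.1, DESeq2 1.42.0, a replicate block, only the libraries compared, and each library left out. The procedure was tested on simulated data.

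Members named were, by rule, up to 4 per direction and comparison by size of change among called genes (5 CPM or more in 1 of the groups), all paralogs, the stalk genes and the 4 of highest and lowest TPM; from other lists, up to 3 called genes per comparison. Further names were chosen after their values were seen. Same-numbered libraries deviated together across genes (r of 0.106 to 0.127) between the times in knockdown, where the replicate block gave 40 falls as did the fit without it. Between the genotypes at ZT8, r was 0.273, -0.099 and 0.194. Numbers were taken from the sample titles, and the ZT8 library names carry partly other numbers, so the pairing behind the replicate block is uncertain. In the other comparisons r was at most 0.081. The members and lists were chosen with earlier results of these data known. From the lists, pes (peste) and lok (matched through the synonym Mnk) were dropped after counts were seen, because their symbols name other genes than those meant. Annotation came from BDGP6.54, with 89 of 91 members at the same start and end as in RefSeq.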

Additional observations from a re-analysis of the deposited data

Results flagged for a closer look

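In all, 4 members were picked out because the knockdown effect differed between ZT8 and ZT16 by the interaction term of the edgeR model, with p-values adjusted over all genes tested. The interaction was -0.35 ± 0.081 for RpL22 (adjusted p = 0.0404, range over 19 alternatives 0.00382 to 0.150), -0.31 ± 0.080 for RpS16 (adjusted p = 0.0498, range 0.00766 to 0.220), -0.30 ± 0.062 for RpS25 (adjusted p = 0.0302, range 6.57e-06 to 0.182) and -0.23 ± 0.059 for RpL17 (adjusted p = 0.0485, range 8.84e-04 to 0.382). All values were below 0 in every alternative, while the call ended in 13, 16, 10 and 17 of 19 alternatives in that order.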

How the results depend on the processing

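At ZT8, rises in knockdown numbered 0 without the filter, on both TPM scales, with the replicate block and in the 6 libraries alone, and 4 by DESeq2; falls numbered 2 on both TPM scales and 1 by DESeq2. The member median at ZT8 was -0.064 on both TPM scales. At ZT16, 13 members fell without the filter and 12 with the replicate block. Over both times, 1 rose by DESeq2, and 1 fell with RLE factors, no filter, rRNA genes left out or the replicate block, 28 on both TPM scales and 5 by DESeq2, with a median of -0.12 on TPM. With time in control, 7 rose without the filter, 2 on both TPM scales and 4 in the 6 libraries alone; 20 fell on TPM, with a median of -0.10. With time in knockdown, falls numbered 38 to 44 in all alternatives that kept every library of the comparison, with 40 under the replicate block, and 2 rose by DESeq2. The interaction gave 2 falls with RLE factors or without rRNA genes, 1 without the filter, 0 on TPM or with the replicate block, and 16 by DESeq2, with a median of -0.11 on TPM. The summed knockdown to control ratio was 1.052 (ZT8) and 0.9219 (ZT16) on CPM, and the time ratio in knockdown was 0.9198 on TPM without rRNA genes. The cause of these differences was not tested. TPM moved the median of all genes to -0.14 at ZT8, -0.11 over both times and -0.11 with time in control. On log2(TPM + 0.1), falls among all 10717 genes numbered 1760 at ZT8, 2804 over both times and 2284 with time in control.

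With each library left out, counts ran from 0 to 2 rises and 0 to 2 falls at ZT8, 1 to 22 falls at ZT16, 0 to 1 rises and 1 to 4 falls over both times, 4 to 13 rises and 6 to 10 falls with time in control, 0 to 1 rises and 26 to 43 falls with time in knockdown, and 0 to 1 rises and 0 to 6 falls in the interaction. Medians ran from 0.025 to 0.0996, -0.158 to -0.0894, -0.0492 to -0.00461, -0.0182 to 0.0444, -0.22 to -0.149 and -0.232 to -0.141 in the same order. Summed ratios ran from 0.9137 to 0.9831 (ZT8), 0.8687 to 0.8953 (ZT16), 0.9049 to 0.9737 (time in control) and 0.8507 to 0.8872 (time in knockdown).

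Correlations of same-numbered deviations between the genotypes at ZT8 were 0.273, -0.099 and 0.194, so numbers 1 and 3 deviated together there and number 2 did not. The numbers are those of the sample titles, from which the ZT8 library names differ in part, so equal numbers need not mean matched libraries. They were 0.037, 0.039 and 0.014 at ZT16. Between times they were -0.009, 0.081 and -0.05 in control, and 0.106, 0.109 and 0.127 in knockdown. With 3 libraries a group and a median SD of 0.067 (log2) within groups, the smallest member change called at ZT16 was -0.15 (RpL37A).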
